A study of Saccharomyces cerevisiae with 33 samples.

Results

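The genes of ornithine and arginine synthesis in *Saccharomyces cerevisiae* are the subject here: *ARG1*, *ARG2*, *ARG3*, *ARG4*, *ARG5,6*, *ARG7*, *ARG8* and *CPA1*. They were taken by gene symbol from the probe sets of the Affymetrix Yeast Genome 2.0 array. A probe set was named for 7 of the 8 genes, 1 each, and these stand among 5449 yeast genes with a named probe set. *ARG5,6*, which encodes the acetylglutamate kinase and reductase, was not analysed here. All 7 measured genes lay above the background level of the array, a log2 signal of 5.47, on each of the 33 arrays, with values between 6.46 for *ARG2* and 11.08 for *ARG1*.

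Expression was measured in aerobic chemostat cultures at 1 fixed dilution rate, in a medium that held inositol and choline, with either the carbon source (C-limited, 18 arrays) or the nitrogen source (N-limited, 15 arrays) limiting growth. The strains were the prototrophic reference CEN.PK113-7D and its 4 derivatives, which lack *OPI1* (*opi1*Δ), *INO2* (*ino2*Δ), *INO4* (*ino4*Δ) or both INO genes (*ino2*Δ*ino4*Δ), all of mating type a, each deletion made with a loxP-Kan-loxP cassette and each genotype represented by 1 strain. Ino2 and Ino4 are the paired activators of phospholipid synthesis genes, and Opi1 is their repressor. C-limited *opi1*Δ oscillated and was sampled at the maximum and at the minimum of CO2 production, which gives 11 groups of 3 replicate arrays. The labels do not tell whether the 3 arrays of a group came from separate cultures. The paper names 3 biological replicates for its physiological values of these cultures, but not for the arrays. A p-value here thus measures the spread between these arrays, which may be technical. An array of bulk RNA cannot tell fewer cells that express a gene from less of its RNA per cell.

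Arginine is made in 2 parts of the yeast cell. In the mitochondrion glutamate is acetylated by Arg2, carried through Arg5,6 to an aldehyde, turned into acetylornithine by Arg8, and freed as ornithine by Arg7, which hands the acetyl group back to glutamate. In the cytosol Arg3 joins ornithine to carbamoyl phosphate, which Cpa1 helps to supply, and Arg1 and Arg4 turn the resulting citrulline into arginine by way of argininosuccinate. With arginine in excess, the ArgR/Mcm1 complex of Arg80, Arg81, Arg82 and Mcm1 represses several of these genes. It also allows the breakdown genes *CAR1* and *CAR2* to be expressed. Gcn4 activates synthesis genes when amino acids run short, and *CPA1* is also held back by a short peptide read from its leader.

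Values are log2 signals as the authors deposited them, from PLIER, which sums up the probes of a probe set. Differences of group means are given as log2 fold changes with ± 1 standard error, from a linear model of all 33 arrays (limma). Higher, lower and changed stand for a Benjamini-Hochberg adjusted p below 0.01 over all genes tested. The medians of the arrays lay between 7.14 and 7.44. The deleted gene read at or below background in all arrays of its strain, with 1 exception. That exception is *INO4* in replicate 1 of the C-limited double deletion *ino2*Δ*ino4*Δ, at 6.64 against 5.09 and 5.15 in replicates 2 and 3. Of the other C-limited arrays, *INO4* read 5.08 and 5.06 in those labelled *ino2*Δ replicates 2 and 3 but 6.53 in replicate 1, and *INO2* read 5.19 in the one labelled *ino4*Δ replicate 3 but 6.34 and 6.18 in replicates 1 and 2. The groups were kept as labelled, and calls that change without these 4 arrays are given beside the results. Another 5 arrays deviate together from their groups, namely C-limited *opi1*Δ at minimum CO2 replicates 1 and 3, the N-limited reference replicate 1 and replicates 1 and 3 of the N-limited double deletion, and calls that change without them are given too. On all 3 N-limited arrays labelled *ino2*Δ*ino4*Δ the general amino acid permease gene *GAP1*, which is held down by a good nitrogen supply, read between 7.64 and 8.14, within the 7.21 to 9.18 of the C-limited arrays, and on the N-limited arrays of the other 4 strains between 11.45 and 11.98. Whether nitrogen limited these 3 cultures cannot be told from the arrays, and every comparison with this group takes its label as given.

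**Figure D1:**
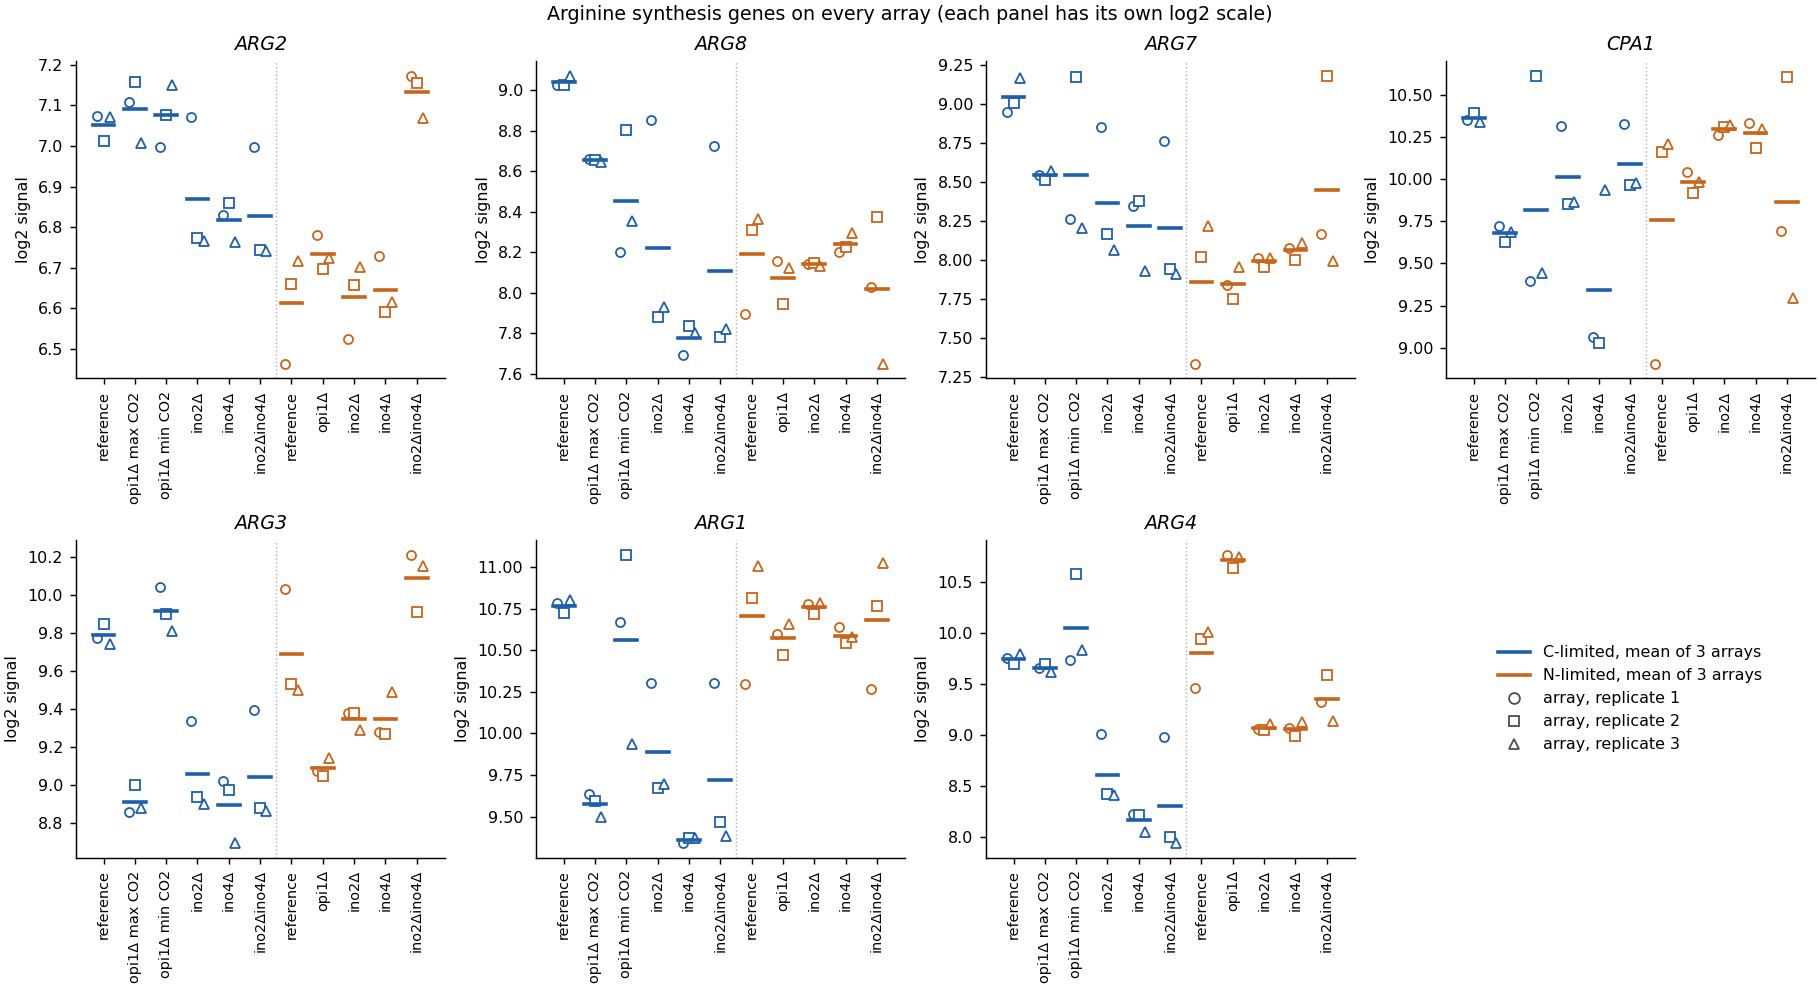
Log2 signal of the 7 measured genes on every array, 1 panel per gene, each with its own vertical axis. Symbols are single arrays (circle, square and triangle for replicates 1, 2 and 3) and bars are means of 3 arrays, blue for C-limited and orange for N-limited groups. *ARG4* runs from a group mean of 8.16 in C-limited *ino4*Δ to 10.72 in N-limited *opi1*Δ, while the group means of *ARG2* stay between 6.61 and 7.13.

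The 3 measured genes of the mitochondrial part were lower in the N-limited than in the C-limited reference, and none of the 4 others passed the test. *ARG7*, the ornithine acetyltransferase, read 8.95, 9.01 and 9.17 in the C-limited and 7.33, 8.02 and 8.22 in the N-limited arrays. *ARG8*, the acetylornithine aminotransferase, read 9.03, 9.03 and 9.07 against 7.90, 8.31 and 8.37. All N-limited arrays lay below all C-limited ones for both genes, and 1 N-limited array, replicate 1, lay lowest. The log2 fold change was -1.18 ± 0.28 for *ARG7* (2.27-fold lower, adjusted p = 0.00179) and -0.85 ± 0.22 for *ARG8* (1.80-fold lower, adjusted p = 0.00426).

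*ARG2*, whose product takes the first step of the pathway, read 7.07, 7.01 and 7.07 against 6.46, 6.66 and 6.72 in these arrays. Its fall by 0.44 was the smallest of the called ones but had a narrow error (± 0.09, adjusted p = 2.6e-04). In all 3 of the 7 measured genes were lower and none was higher, where 8.61% of all genes were lower. *CPA1* read 10.35, 10.39 and 10.34 against 8.90, 10.16 and 10.21, so that 1 array carries most of its -0.60 ± 0.32 (adjusted p = 0.145). The cytosolic genes *ARG1*, *ARG3* and *ARG4* stood at -0.06, -0.10 and 0.06, with 95% intervals of -0.55 to 0.42, -0.39 to 0.19 and -0.39 to 0.50. The median of the 7 genes was -0.44 and that of all genes 0.06.

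The calls of *ARG7* and *ARG8* moved with single arrays. Without the N-limited reference replicate 1 the fold change of *ARG7* was -0.92 (adjusted p = 0.02) and that of *ARG8* -0.70 (adjusted p = 0.0318). With the other deviating arrays left out as well, the values stayed the same but *ARG7* passed (adjusted p = 0.00123) and *ARG8* did not (adjusted p = 0.0153). *ARG8* also missed the threshold without any 1 of the C-limited reference arrays, with adjusted p from 0.0138 to 0.0152 and fold changes from -0.86 to -0.84, while *ARG2* kept its call in every such fit.

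Under C-limitation all 7 genes had negative fold changes in each INO deletion, single or double, and *ARG4* and *ARG3* were called in each of them. These 3 comparisons share the same reference arrays, so the likeness of the signs is no independent repeat. *ARG4*, the argininosuccinate lyase, read 9.76, 9.69 and 9.79 in the reference. It read 9.00, 8.41 and 8.41 in *ino2*Δ, 8.22, 8.21 and 8.05 in *ino4*Δ and 8.97, 7.99 and 7.93 in *ino2*Δ*ino4*Δ. No array of a deletion strain reached the reference, and the first array of both *ino2*Δ and *ino2*Δ*ino4*Δ stood above the other two. The log2 fold changes were -1.14 ± 0.22 in *ino2*Δ (adjusted p = 0.00305), -1.59 ± 0.22 in *ino4*Δ (adjusted p = 2.3e-05, 3.01-fold lower) and -1.45 ± 0.22 in the double deletion (adjusted p = 2.1e-04).

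*ARG3*, the ornithine carbamoyltransferase, read 9.78, 9.85 and 9.74 in the C-limited reference, 9.34, 8.94 and 8.90 in *ino2*Δ, 9.02, 8.97 and 8.70 in *ino4*Δ, and 9.39, 8.88 and 8.86 in *ino2*Δ*ino4*Δ. Again no array of these strains overlapped the reference. It was lower by -0.73 ± 0.14 in *ino2*Δ (adjusted p = 0.00355), -0.89 ± 0.14 in *ino4*Δ (adjusted p = 1.3e-04) and -0.74 ± 0.14 in the double deletion (adjusted p = 0.00377). The calls of *ARG3* in *ino2*Δ and *ino2*Δ*ino4*Δ and of *ARG4* in *ino2*Δ stood, of the 6 fits that left out 1 array, only in that without replicate 1 of the strain. They were lost without any 1 of the 3 reference arrays or without replicate 2 or 3 of the strain, with *ARG3* from -0.76 to -0.65 in *ino2*Δ (adjusted p from 0.0146 to 0.052) and from -0.77 to -0.65 in the double deletion (adjusted p from 0.0165 to 0.0546), and *ARG4* from -1.17 to -1.04 in *ino2*Δ (adjusted p from 0.0136 to 0.0414). The calls in *ino4*Δ, and that of *ARG4* in *ino2*Δ*ino4*Δ, stood in each such fit. For *ino2*Δ the fit without replicate 1 keeps only replicates 2 and 3, whose *INO4* levels go against the label.

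Further genes were called only in *ino4*Δ among these strains, and the differences between the strains were not tested. *ARG1*, the argininosuccinate synthetase, read 10.78, 10.72 and 10.80 in the reference and 9.34, 9.37 and 9.37 in *ino4*Δ. *ARG8* read 7.69, 7.84 and 7.80 in *ino4*Δ, against a reference that did not go below 9.03. For both genes the arrays of *ino4*Δ lie close to each other and well apart from the reference. *ARG1* was lower by -1.41 ± 0.24 (2.65-fold, adjusted p = 2.8e-04) and *ARG8* by -1.27 ± 0.22 (2.40-fold, adjusted p = 3.9e-04).

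In *ino2*Δ *ARG1* read 10.30, 9.67 and 9.70 and in *ino2*Δ*ino4*Δ 10.30, 9.47 and 9.39, and its fold changes of -0.88 ± 0.24 (adjusted p = 0.0504) and -1.05 ± 0.24 (adjusted p = 0.0198) did not pass. *ARG8* was at -0.82 ± 0.22 (adjusted p = 0.0522) and -0.93 ± 0.22 (adjusted p = 0.0297). In both strains replicate 1 is the array nearest to the reference, and without it both genes were called in both strains, *ARG1* at -1.08 and -1.34 and *ARG8* at -1.14 and -1.24. For *ino2*Δ that fit keeps only replicates 2 and 3, whose *INO4* levels of 5.08 and 5.06 go against the label. In *ino2*Δ*ino4*Δ replicate 1 is itself the array whose *INO4* level goes against the label. *CPA1*, the small subunit of carbamoyl phosphate synthetase, read 9.06, 9.03 and 9.94 in *ino4*Δ (-1.02 ± 0.32, adjusted p = 0.0201, and -1.32 with adjusted p = 0.00319 without replicate 3), 10.32, 9.85 and 9.86 in *ino2*Δ and 10.33, 9.96 and 9.98 in *ino2*Δ*ino4*Δ. Its arrays thus split inside each label. *ARG7* stood between -0.84 and -0.68 and *ARG2* between -0.23 and -0.18 in the 3 strains, with no call.

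The number of genes lower was 2 of 7 in *ino2*Δ, where 0.734% of all genes were lower, 4 of 7 in *ino4*Δ (6.74%) and 2 of 7 in *ino2*Δ*ino4*Δ (0.496%), and none was higher. The medians of the 7 genes were -0.73, -1.02 and -0.84, beside 0.02, 0.05 and 0.04 for all genes.

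Without the 4 arrays whose *INO2* and *INO4* levels go against their labels, *ino2*Δ is 1 array, which is then assumed to vary like the other groups, and none of the 7 genes was called in it, where 0.422% of all genes were: *ARG4* stood at -0.74 (adjusted p = 0.336) and *ARG3* at -0.45 (adjusted p = 0.59), and *ARG2* turned to 0.02. In *ino4*Δ, then 2 arrays, with 12.4% of all genes lower, the 4 calls held with *ARG4* at -1.53 and *ARG1* at -1.41, and *CPA1* was called as well (-1.32, adjusted p = 0.00477). In *ino2*Δ*ino4*Δ, also 2 arrays, 4 genes were lower (1.85% of all genes): *ARG4* at -1.78 (adjusted p = 4.0e-07), *ARG1* at -1.34 (adjusted p = 5.3e-04), *ARG8* at -1.24 (adjusted p = 2.6e-05) and *ARG3* at -0.92 (adjusted p = 2.5e-05).

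Array by array, the one labelled *ino2*Δ replicate 1 and the one labelled *ino2*Δ*ino4*Δ replicate 1, with *INO4* at 6.53 and 6.64 and *INO2* at 5.22 and 5.17, read alike for the arginine genes: 10.30 and 10.30 for *ARG1*, 9.00 and 8.97 for *ARG4*, 8.85 and 8.73 for *ARG8*, and 10.32 and 10.33 for *CPA1*. The 5 C-limited arrays on which both *INO2* and *INO4* read below background carried labels of all 3 strains, and *CPA1* lay between 9.85 and 9.98 on them. The 2 arrays with *INO4* alone below background, *ino4*Δ replicates 1 and 2, held the lowest *CPA1* values of the C-limited arrays, 9.06 and 9.03. No test was made on such sets of arrays.

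**Figure D2:**
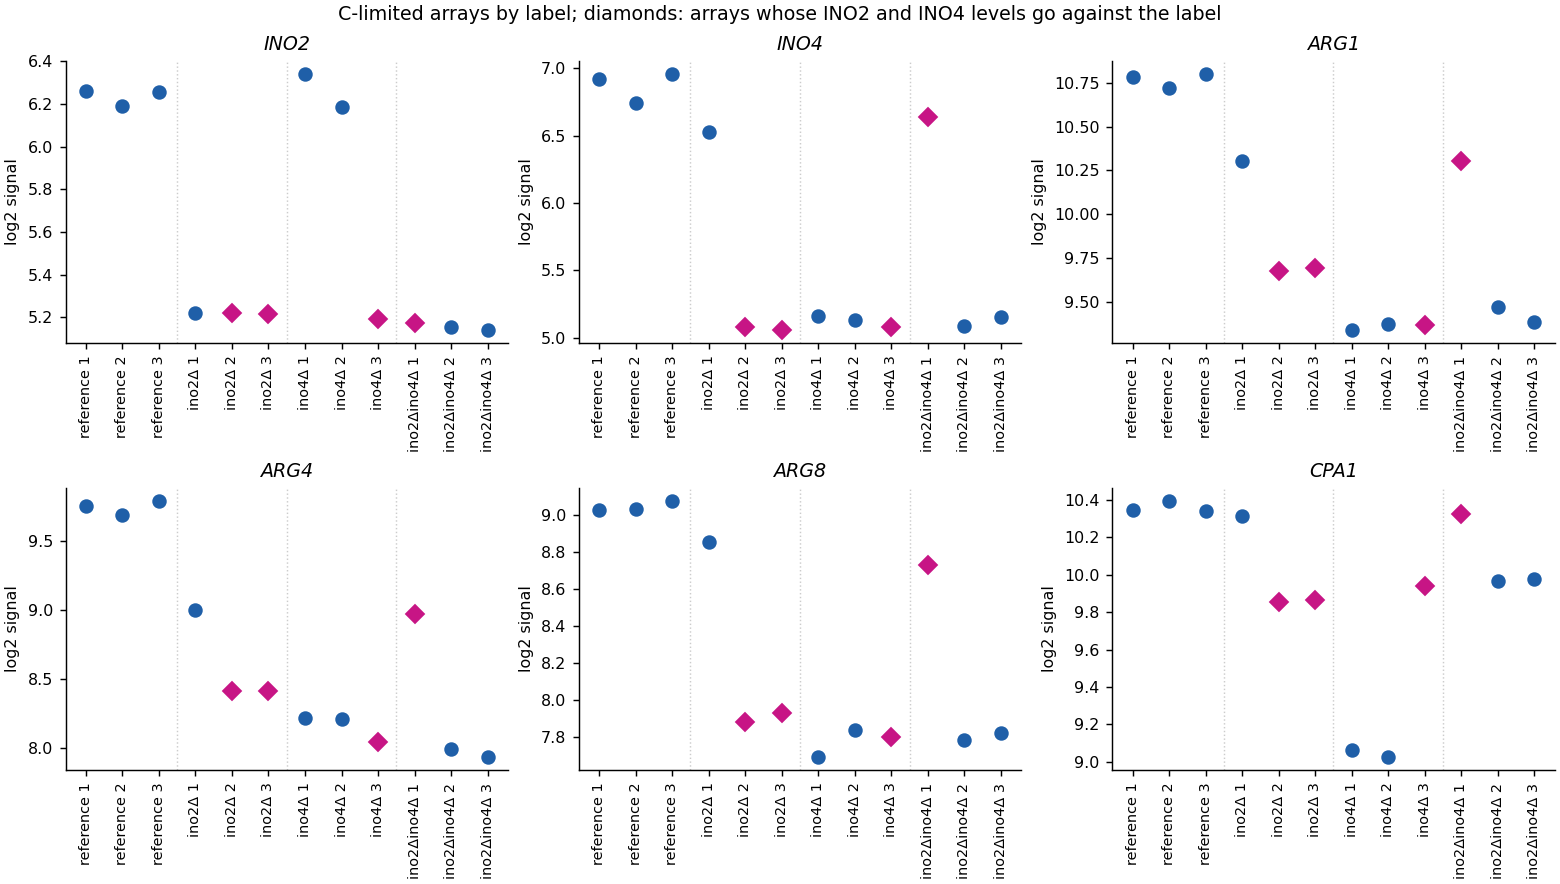
Log2 signal of *INO2*, *INO4*, *ARG1*, *ARG4*, *ARG8* and *CPA1* on the 12 C-limited arrays of the reference and the 3 INO deletions, by label and replicate number; each panel has its own axis and each point is 1 array. Diamonds mark the 4 arrays whose *INO2* and *INO4* levels go against their labels, such as *ino2*Δ*ino4*Δ replicate 1 with *INO4* at 6.64 and *ARG4* at 8.97, against 7.99 and 7.93 for *ARG4* in replicates 2 and 3.

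In C-limited *opi1*Δ *ARG1* and *ARG3* stood lower at the maximum of CO2 production than at the minimum and than in the reference. *ARG3* read 8.86, 9.00 and 8.88 at maximum and 10.05, 9.90 and 9.81 at minimum CO2. *ARG1* read 9.63, 9.59 and 9.50 at maximum and 10.67, 11.08 and 9.94 at minimum CO2. The phases do not overlap for either gene, and the minimum-CO2 arrays of *ARG1* lay far apart from each other. Between the phases *ARG3* differed by -1.01 ± 0.14 (2.01-fold lower at maximum, adjusted p = 1.6e-06) and *ARG1* by -0.99 ± 0.24 (1.98-fold lower, adjusted p = 0.00103). These were 2 of 7 genes, where 17% of all genes were lower at maximum CO2.

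Against the C-limited reference the maximum-CO2 arrays gave *ARG1* at -1.19 ± 0.24 (adjusted p = 2.3e-04) and *ARG3* at -0.88 ± 0.14 (adjusted p = 1.9e-05), 2 of 7 genes where 13.7% of all genes were lower. *ARG4*, next to them in the pathway, read 9.66, 9.69 and 9.61, overlapping the reference arrays (-0.09 ± 0.22, 95% interval -0.54 to 0.35). *CPA1* at 9.72, 9.63 and 9.69, *ARG7* at 8.54, 8.51 and 8.57 and *ARG8* at 8.66, 8.66 and 8.65 all lay below their reference arrays. Their fold changes of -0.68, -0.50 and -0.39 had adjusted p from 0.0856 to 0.165. A fit of these groups alone, which takes the spread from these tight arrays only, called 5 of the 7 genes and 23.4% of all genes lower.

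At minimum CO2 limma called none of the 7 genes against the reference, where 7.73% of all genes changed in either direction. At an unadjusted p below 0.05 it was 1 gene, and the methods' t-test with adjustment called 0. The fold changes ran from -0.59 ± 0.22 for *ARG8* (adjusted p = 0.0592) to 0.30 ± 0.22 for *ARG4*. The replicates were uneven. *CPA1* read 10.61 in replicate 2 but 9.40 and 9.45 in replicates 1 and 3, *ARG7* 9.17 but 8.26 and 8.20, and *ARG4* 10.58 but 9.74 and 9.83. Without replicates 1 and 3, together with the other arrays that deviate with them, 4 genes were lower at maximum than at minimum CO2 (19.6% of all genes): *ARG1* by -1.50, *ARG3* by -0.99, *CPA1* by -0.94 (adjusted p = 0.00143) and *ARG4* by -0.93 (adjusted p = 0.00343). The minimum-CO2 group is then 1 array. Without replicate 2 the phase difference of *ARG1* was -0.73 (adjusted p = 0.0125), and *CPA1* and *ARG7* turned to 0.26 and 0.31.

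Under N-limitation the deletions moved few of the genes past the threshold. In N-limited *opi1*Δ *ARG4* read 10.77, 10.64 and 10.75 against 9.46, 9.94 and 10.02 in the N-limited reference, above every other group. *ARG3* read 9.07, 9.05 and 9.14 against 10.04, 9.53 and 9.50. The arrays of both genes do not overlap with the reference, in opposite directions. The fold changes of 0.92 ± 0.22 for *ARG4* (adjusted p = 0.0104) and -0.60 ± 0.14 for *ARG3* (adjusted p = 0.01) lay just outside the threshold. *ARG3* was called without the N-limited reference replicate 2 (-0.68, adjusted p = 0.00982) or replicate 3 (-0.70, adjusted p = 0.00689), and *ARG4* after quantile normalization (0.88, adjusted p = 0.00533). None of the 7 genes was thus called by limma, where 2.53% of all genes changed, while 2 had an unadjusted p below 0.05 and the methods' t-test called 0. The remaining 5 genes stood between -0.13 and 0.22.

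In N-limited *ino2*Δ and *ino4*Δ *ARG4* and *ARG3* had the most negative values. *ARG4* read 9.06, 9.04 and 9.10 in *ino2*Δ and 9.06, 8.99 and 9.13 in *ino4*Δ, below all 3 reference arrays, with -0.74 ± 0.22 in each (adjusted p = 0.103 and 0.1). *ARG3* was at -0.34 ± 0.14 in each (adjusted p = 0.327 and 0.304). *ARG1* differed by 0.06 and -0.12, with 95% intervals of -0.43 to 0.54 and -0.61 to 0.37. No gene of the 7 was called by limma in either strain, where 0.606% of all genes changed in *ino2*Δ and 0.551% in *ino4*Δ. In each strain 2 genes had an unadjusted p below 0.05, and the methods' t-test called 0. The *CPA1* values of 0.54 and 0.52 shrank to 0.11 and 0.09 when the N-limited reference replicate 1 was left out with the other deviating arrays.

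In N-limited *ino2*Δ*ino4*Δ *ARG2* was higher. It read 7.17, 7.15 and 7.07 against 6.46, 6.66 and 6.72 in the N-limited reference, a rise of 0.52 ± 0.09 (1.43-fold, adjusted p = 4.9e-05) to values at or above the 7.01 to 7.07 of the C-limited reference. It was the only call among the 7 genes, where 8.06% of all genes were higher, and it stood in each fit that left out 1 array. *ARG3* read 10.22, 9.91 and 10.15 (0.40 ± 0.14, adjusted p = 0.037), and without the N-limited reference replicate 1 it was called at 0.58 (adjusted p = 0.00251). *ARG7*, at 8.16, 9.18 and 7.99, and *CPA1*, at 9.69, 10.61 and 9.29, were high in replicate 2 alone, and their 0.59 and 0.11 did not pass. Without the deviating arrays, which leaves replicate 2 as the only array of the strain, *ARG7* was called at 1.06 (adjusted p = 0.00899). On the same 3 arrays *GAP1* read 7.67, 8.14 and 7.64, at the C-limited level. Its part in the arginine values was not tested.

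**Figure D3:**
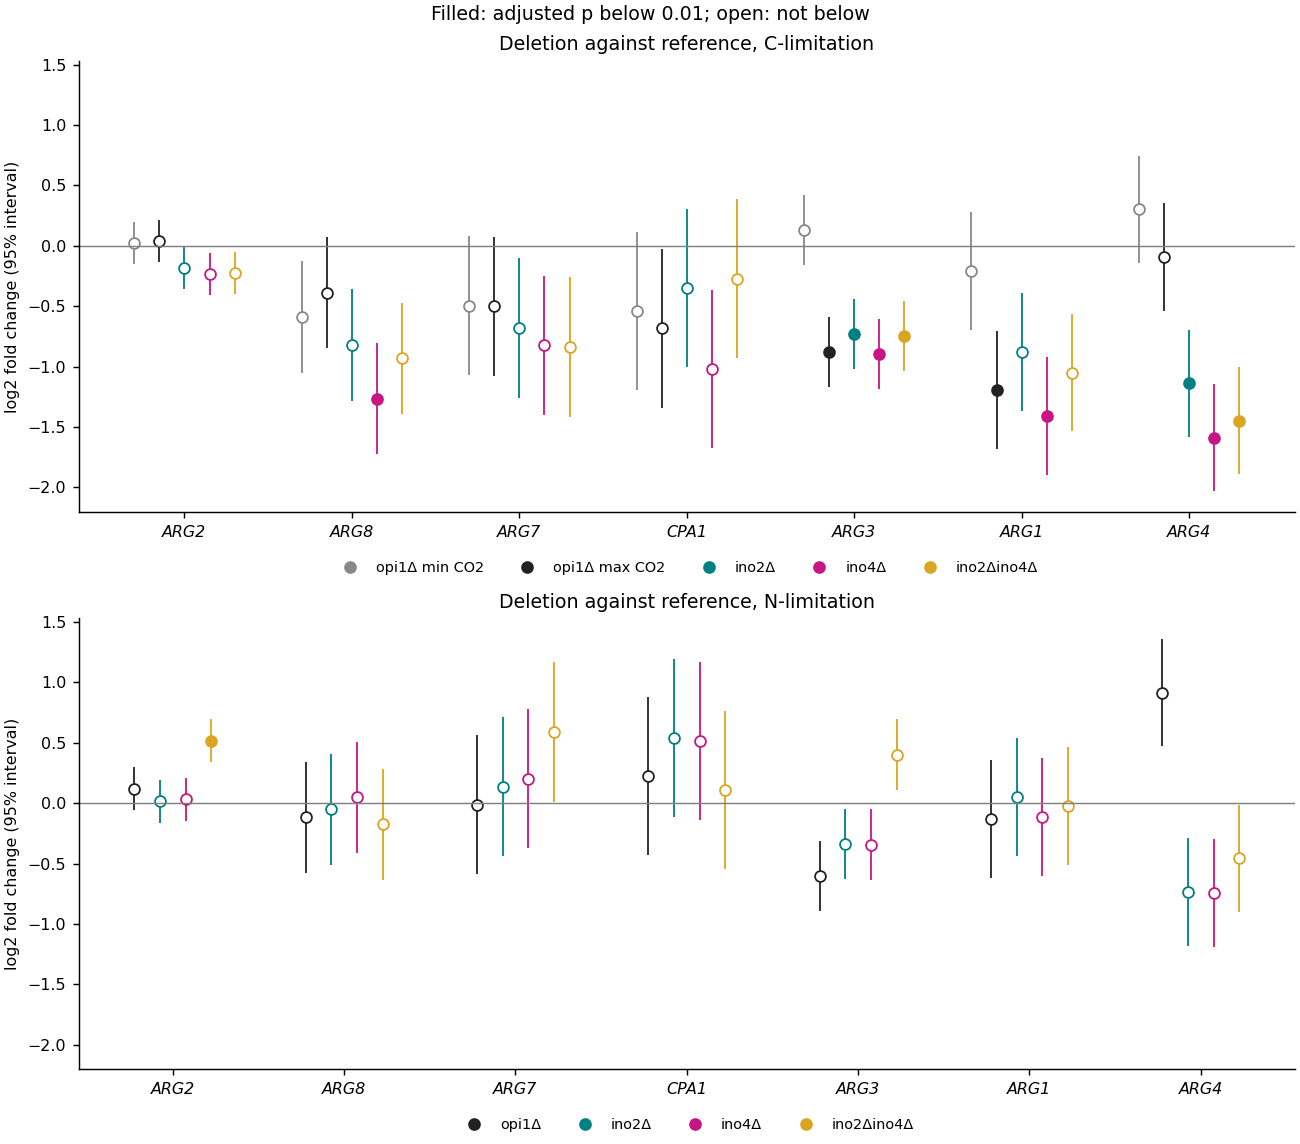
Log2 fold change of each gene against the reference of the same limitation, C-limited above and N-limited below, with 95% intervals from the limma model over 33 arrays; each colour is a strain, filled symbols have an adjusted p below 0.01. Under C-limitation *ARG3* and *ARG4* are filled in all 3 INO deletions, *ARG4* down to -1.59 in *ino4*Δ, whereas under N-limitation only *ARG2* in *ino2*Δ*ino4*Δ is filled, at 0.52. With 1 array left out, the adjusted p reached 0.052 for *ARG3* and 0.0414 for *ARG4* in C-limited *ino2*Δ. It reached 0.0546 for *ARG3* in C-limited *ino2*Δ*ino4*Δ. C-limited *ino2*Δ replicates 2 and 3 have *INO4* levels that go against their label.

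Between cultures labelled N- and C-limited of the same strain, *ARG1* was higher under N-limitation in all 3 INO deletions, *ARG4* in *ino4*Δ and *ino2*Δ*ino4*Δ, and *ARG3* and *ARG2* in *ino2*Δ*ino4*Δ. *ARG1* read 10.78, 10.72 and 10.79 in N-limited *ino2*Δ, 10.64, 10.54 and 10.58 in N-limited *ino4*Δ and 10.27, 10.77 and 11.02 in N-limited *ino2*Δ*ino4*Δ, close to the N-limited reference at 10.30, 10.81 and 11.01. The N-limited means of the 5 strains differ by 0.18 at most for *ARG1*, but the C-limited ones by 1.41. It was higher in the N-limited than in the C-limited cultures by 0.87 ± 0.24 in *ino2*Δ (adjusted p = 0.00614), 1.22 ± 0.24 in *ino4*Δ (adjusted p = 2.6e-04) and 0.97 ± 0.24 in the double deletion (adjusted p = 0.00241).

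The arrays do not overlap between limitations in *ino2*Δ and *ino4*Δ, while in *ino2*Δ*ino4*Δ the C-limited replicate 1 at 10.30 lies above the lowest N-limited one.

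The difference of *ARG4* was 0.90 ± 0.22 in *ino4*Δ (adjusted p = 0.002) and 1.05 ± 0.22 in the double deletion (adjusted p = 4.9e-04). In *ino2*Δ*ino4*Δ that of *ARG3* was 1.05 ± 0.14 (2.07-fold higher, adjusted p = 3.0e-06) and that of *ARG2* 0.30 ± 0.09 (adjusted p = 0.00654). Counted over the 7 genes, 1 was higher in *ino2*Δ (10.9% of all genes), 2 in *ino4*Δ (11.5%) and 4 in *ino2*Δ*ino4*Δ (14.3%), and none was lower. In *opi1*Δ, against its minimum-CO2 arrays, 2 of 7 genes were lower, where 9.08% of all genes were: *ARG3* by -0.83 ± 0.14 (adjusted p = 4.4e-05) and *ARG2* by -0.34 ± 0.09 (adjusted p = 0.0025). The call of *ARG1* in *ino2*Δ was lost without either of the C-limited arrays labelled *ino2*Δ replicates 2 and 3 (0.76 and 0.77, adjusted p = 0.0378 and 0.0364) and without any of the 3 N-limited ones (adjusted p from 0.0168 to 0.0218), and it stood at 0.46 (adjusted p = 0.34) without the C-limited arrays of mismatched *INO* levels. In that fit, with 1 C-limited array left, *ARG2* was lower at -0.44 (adjusted p = 0.00236), where 6.81% of all genes were lower. The call of *ARG4* in *ino4*Δ was lost without N-limited *ino4*Δ replicate 3 (0.87, adjusted p = 0.0107), and *CPA1* was called there without C-limited replicate 3 (1.23, adjusted p = 0.0052) and without all arrays of mismatched *INO* levels (adjusted p = 0.00761). In *ino2*Δ*ino4*Δ *ARG1* lost its call without C-limited replicates 2 or 3 or N-limited replicate 3 (0.84, 0.80 and 0.80), and *ARG2* lost it without any single array but C-limited replicate 1, with values from 0.26 to 0.34. In *opi1*Δ *ARG2* lost its call without minimum-CO2 replicate 3 (-0.30) or N-limited replicates 2 or 3 (-0.32 and -0.34), while *ARG4* was called without minimum-CO2 replicate 2 (0.94, adjusted p = 9.1e-04).

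Without the arrays that deviate together *ARG7* passed and *ARG2* did not, both in *opi1*Δ and in the double deletion. In *opi1*Δ *ARG7* was at -1.33 (adjusted p = 2.8e-04, against -0.70 with all arrays) and *ARG2* at -0.34 (adjusted p = 0.0128). In *ino2*Δ*ino4*Δ, where replicate 2 is then the only N-limited array, *ARG7* was at 0.98 (adjusted p = 0.00892) and *ARG2* at 0.33 (adjusted p = 0.0323).

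**Figure D4:**
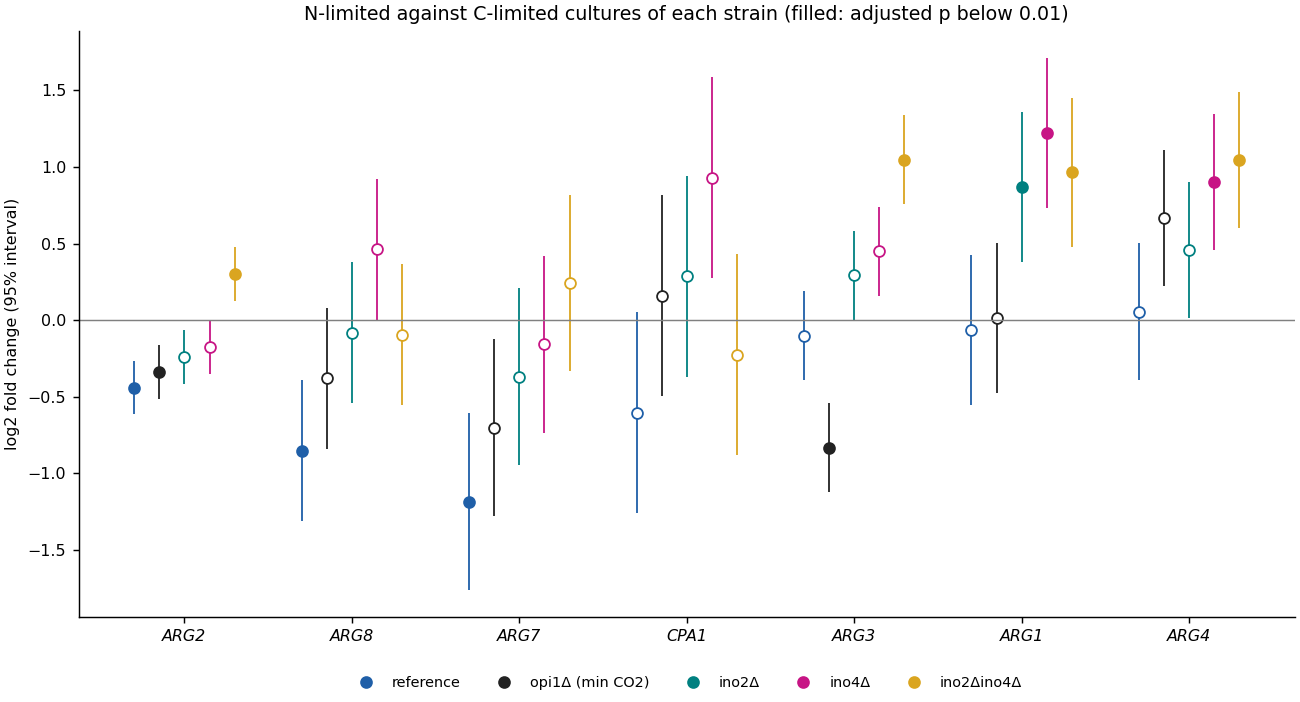
Log2 fold change of N-limited against C-limited cultures for each gene and strain, with 95% intervals; *opi1*Δ is set against its minimum-CO2 arrays and filled symbols have an adjusted p below 0.01. In the reference *ARG2*, *ARG8* and *ARG7* lie below 0, *ARG7* at -1.18, and in *ino2*Δ*ino4*Δ *ARG2*, *ARG3*, *ARG1* and *ARG4* lie above 0, the last at 1.05.

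The difference between these effects was tested directly, as the deletion's effect under N-limitation minus that under C-limitation. All 4 such comparisons share the reference arrays of both limitations. For *ino2*Δ*ino4*Δ the difference passed for *ARG3* (1.15 ± 0.20, adjusted p = 2.2e-04) and *ARG2* (0.74 ± 0.12, adjusted p = 9.1e-05), 2 of 7 genes where 3.23% of all genes had a higher difference. For *ino4*Δ it passed for *ARG8* (1.32 ± 0.32, adjusted p = 0.00963), 1 of 7 where 1.25% of all genes did. *CPA1* had the widest difference there, 1.53 ± 0.45, and did not pass (adjusted p = 0.0248). In *ino2*Δ no gene of the 7 passed, where 0.514% of all genes did in either direction, although all 7 values were positive, from 0.20 to 0.93, and 3 had an unadjusted p below 0.05. Without the arrays of mismatched *INO* levels these values ran from -0.0043 for *ARG2* to 0.59 for *CPA1*, with *ARG4* at 0.0082, *ARG3* at 0.11 and *ARG8* at 0.14, and no adjusted p was below 0.925.

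For *opi1*Δ at minimum CO2 none passed either, where 4.73% of all genes did, 1 had an unadjusted p below 0.05, and the methods' t-test called 0 for both strains. *ARG3* came nearest (-0.73 ± 0.20, adjusted p = 0.0161). It was called without the N-limited reference replicate 3 (-0.83) or minimum-CO2 replicate 2 (-0.74). The medians of the 7 genes were 0.77, 1.03 and 0.99 for *ino2*Δ, *ino4*Δ and the double deletion and 0.47 for *opi1*Δ, beside -0.04, -0.04, -0.03 and 0.03 for all genes. The call of *ARG8* was lost in 10 of the 12 fits that left out 1 array (over all 12, 1.17 to 1.40 with adjusted p from 0.00508 to 0.0359), and held without the N-limited reference replicate 3 or C-limited *ino4*Δ replicate 3. In contrast *ARG3* and *ARG2* kept theirs in all 12. Without the 4 arrays of mismatched *INO* levels 6 genes passed for *ino2*Δ*ino4*Δ, all but *CPA1*, where 5.01% of all genes had a higher difference, and 3 for *ino4*Δ (7.8%), *ARG1* at 1.29, *ARG8* at 1.33 and *CPA1* at 1.83. Without the arrays that deviate together 3 genes passed for *ino2*Δ*ino4*Δ (4.28% of all genes), with *ARG7* at 1.90 (adjusted p = 3.8e-04) beside *ARG3* and *ARG2*, and 4 for *ino4*Δ (4.62%), *ARG8* at 1.17, *CPA1* at 1.11, *ARG1* at 1.08 and *ARG3* at 0.72.

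Across the 11 groups the genes kept different orders. The C-limited reference held the highest mean of *ARG1* (10.77 ± 0.04, SD, n = 3), *ARG7* (9.04 ± 0.11), *ARG8* (9.04 ± 0.03) and *CPA1* (10.36 ± 0.03), and C-limited *ino4*Δ the lowest mean of *ARG1* (9.36), *ARG3* (8.90), *ARG4* (8.16), *ARG8* (7.78) and *CPA1* (9.34). *ARG2* and *ARG3* were highest in N-limited *ino2*Δ*ino4*Δ (7.13 ± 0.06 and 10.09 ± 0.16), *ARG4* in N-limited *opi1*Δ (10.72 ± 0.07), and *ARG2* was lowest in the N-limited reference (6.61 ± 0.13) and *ARG7* in N-limited *opi1*Δ (7.84 ± 0.10). Most neighbours in these orders overlap. For *ARG1* only C-limited *opi1*Δ at maximum CO2 stands apart from its lower neighbour, and for *ARG2* and *ARG7* no neighbours stand apart.

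*ARG4* showed the clearest steps, with N-limited *opi1*Δ above C-limited *opi1*Δ at minimum CO2, C-limited *opi1*Δ at maximum CO2 above N-limited *ino2*Δ*ino4*Δ, and the latter above N-limited *ino2*Δ. The share of a gene's variance that lies between groups was 91.5% for *ARG4*, 88.9% for *ARG3*, 84.9% for *ARG2*, 80.9% for *ARG1*, 66.1% for *ARG8*, 56.9% for *ARG7* and 42.6% for *CPA1*. The pooled SD within groups was 0.10 for *ARG2*, 0.41 for *CPA1* and between these for the others.

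The likeness of the genes over the 11 group means is a description, since all genes were read on the same arrays. Pearson's r was 0.84 between *ARG2* and *ARG7* and 0.74 between *ARG7* and *ARG8*, 0.76 between *ARG1* and *ARG3* and 0.61 between *ARG1* and *ARG4*. It was -0.06 between *ARG1* and *ARG7* and -0.15 between *ARG1* and *ARG2*. Between *ARG3* and *ARG4* it was 0.40, and between *ARG3* and *ARG2* 0.34. *CPA1* was nearest to *ARG1* (0.60).

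The 10 genes above background whose group means were most like the mean of the 7 centred profiles, members left out, had Pearson's r from 0.70 to 0.78 over 11 groups. These values are high by selection, as the best among all genes above background, and were not tested. They were *ALD5*, a mitochondrial acetaldehyde dehydrogenase (0.78), *FAS2* (0.74) and *ACC1* (0.74), of fatty acid synthesis, *IBD2* (0.73), *BAS1*, an activator of purine and histidine genes (0.73), *OAZ1*, the antizyme of ornithine decarboxylase (0.72), *STP2*, an activator of amino acid permease genes (0.71), *TRP5*, tryptophan synthase (0.71), *POP6* (0.70) and *STO1* (0.70).

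Of the 4 measured genes of arginine and proline breakdown, *CAR2* was called lower in 4 of the 19 comparisons. Synthesis genes were lower too in 3 of them and higher in 1. *CAR2*, the ornithine aminotransferase, read 9.02, 8.99 and 9.11 in the C-limited and 6.92, 7.36 and 7.39 in the N-limited reference, and was lower under N-limitation by -1.82 ± 0.35 (adjusted p = 2.2e-04). It read 7.58, 7.65 and 7.70 in C-limited *opi1*Δ at maximum CO2, lower than the reference by -1.40 ± 0.35 (adjusted p = 0.00211), in arrays where *ARG1* and *ARG3* were lower as well. In N- against C-limited *opi1*Δ it was lower by -1.16 ± 0.35 (adjusted p = 0.00986), with *ARG3* and *ARG2* lower. In N- against C-limited *ino2*Δ*ino4*Δ it was lower by -1.68 ± 0.35 (adjusted p = 5.3e-04), where *ARG1*, *ARG2*, *ARG3* and *ARG4* were higher. *CAR1*, the arginase, was called in none of the 9 comparisons of a deletion with its reference, with values from -0.39 to 0.87, and only N-limited against C-limited *ino2*Δ passed (-1.05 ± 0.26, adjusted p = 0.00231). In the C-limited arrays labelled *ino2*Δ *CAR2* read 9.23, 7.77 and 7.78, with replicate 1 above the others, and in those labelled *ino2*Δ*ino4*Δ it read 9.25, 8.87 and 8.96. Of the same list, *PUT2* (1.90 ± 0.34) and *PRO3* (0.94 ± 0.18) were higher in N- against C-limited *opi1*Δ, where *CAR2* was lower. *PUT2* was also higher in N- against C-limited *ino4*Δ (1.23 ± 0.34), but lower in N-limited *ino2*Δ*ino4*Δ than in the reference (-1.55 ± 0.34). *PRO3* was also higher in N-limited *opi1*Δ than in the reference (0.77 ± 0.18).

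Of the 6 regulators, 2 were higher and 1 lower under N-limitation in the reference, where 14.7% of all genes were higher and 8.61% lower. They were *ARG81*, the arginine sensor of ArgR (0.40 ± 0.11, adjusted p = 0.00446), *GCN2*, the kinase upstream of Gcn4 (0.32 ± 0.09, adjusted p = 0.00849), and *ARG82*, an inositol polyphosphate kinase (-0.36 ± 0.08, adjusted p = 0.00163). None of the 6 was called in any of the C-limited INO deletions, where *ARG3* and *ARG4* were lower. Calls were few there among all 5449 genes too, with 5 higher and 40 lower in *ino2*Δ and 4 and 27 in *ino2*Δ*ino4*Δ. In *ino4*Δ 362 were higher and 367 lower. A part of the regulators in the arginine values was not tested. Between the phases of *opi1*Δ *ARG80* (0.75 ± 0.14, adjusted p = 4.9e-05) and *MCM1* (0.65 ± 0.21, adjusted p = 0.00998), both DNA-binding partners in ArgR/Mcm1, were higher at maximum CO2 and *ARG82* was lower (-0.39 ± 0.08). Of all genes, 28.4% were higher and 17% lower in that comparison. *ARG80* means lay between 5.24 and 5.99, around the background level of 5.47, so its differences are bounds at most where a group lies under it.

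*GCN4* was called in none of the 19 comparisons, with values from -0.73 to 0.63. *GCN4* was uneven within some groups. It read 10.79, 11.76 and 10.87 in C-limited *opi1*Δ at minimum CO2 and 10.98, 11.73 and 11.94 in the N-limited reference. In N-limited *ino2*Δ*ino4*Δ it read 11.21, 11.36 and 10.34, and in C-limited *ino4*Δ 10.98, 10.86 and 11.54. Gcn4 is controlled mainly in translation, which an array of RNA does not see. *ORT1*, the mitochondrial ornithine carrier between the 2 parts of the pathway, was called once, higher in N-limited than C-limited *ino2*Δ*ino4*Δ (0.90 ± 0.15, adjusted p = 4.5e-05).

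Against 53 measured genes of histidine, lysine, branched-chain, aromatic and serine, threonine and asparagine synthesis, the arginine genes went partly the same way. In the N-limited reference 18 of the 53 were lower and 3 higher (8.61% and 14.7% of all genes), among them *ARO4* (-1.47 ± 0.23) and *HOM3* (-1.31 ± 0.17), the entry enzymes of the aromatic and the threonine and methionine branches, and their median was -0.35 beside -0.44 for the arginine genes. In C-limited *ino4*Δ 15 of the 53 were lower, as were 6.74% of all genes, and none higher (median -0.35 beside -1.02), with *ARO3* at -1.11 ± 0.28 and *HOM3* at -0.98 ± 0.17. In C-limited *ino2*Δ and *ino2*Δ*ino4*Δ 2 of the 7 arginine genes were lower, where 0.734% and 0.496% of all genes were. None of the 53 was called by limma in either (median -0.27 in each), which is near those low shares. At an unadjusted p below 0.05 it was 17 and 21 of the 53.

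At maximum against minimum CO2 in *opi1*Δ, 27 of the 53 were higher and 5 lower (28.4% and 17% of all genes). *SHM2* stood at 2.05 ± 0.26 and *BAT1* at 1.89 ± 0.14. The median of the 53 was 0.66, beside -0.14 for the arginine genes and 0.10 for all genes. The arginine median is the value of *CPA1*, -0.14 ± 0.32, which ran from -0.35 to 0.26 with 1 array left out. Its sign is thus not settled. In N-limited *ino2*Δ*ino4*Δ 16 of the 53 were higher and 2 lower (8.06% and 8.09% of all genes), including *LYS20* (1.44 ± 0.26), *ASN2* (1.23 ± 0.12) and *LEU9* (0.99 ± 0.15), with a median of 0.36 beside 0.11. No gene is in both sets, and no test was made between them.

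Of 11 genes around glutamate, glutamine, proline and polyamines, which feed or branch from the pathway, 8 were higher and none lower at maximum against minimum CO2, where 28.4% of all genes were higher. *GLN1*, glutamine synthetase, differed by 2.04 ± 0.32 and *SPE1*, ornithine decarboxylase, by 1.42 ± 0.36. In the N-limited reference *GLT1*, glutamate synthase, was higher (0.99 ± 0.21) and *GDH3*, a glutamate dehydrogenase, lower (-0.86 ± 0.09). In N-limited *ino2*Δ*ino4*Δ *GLT1* (-1.70 ± 0.21) and *GLN1* (-1.38 ± 0.32) were lower than in the reference and *AAT2*, the cytosolic aspartate aminotransferase, higher (0.90 ± 0.12).

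**Figure D5:**
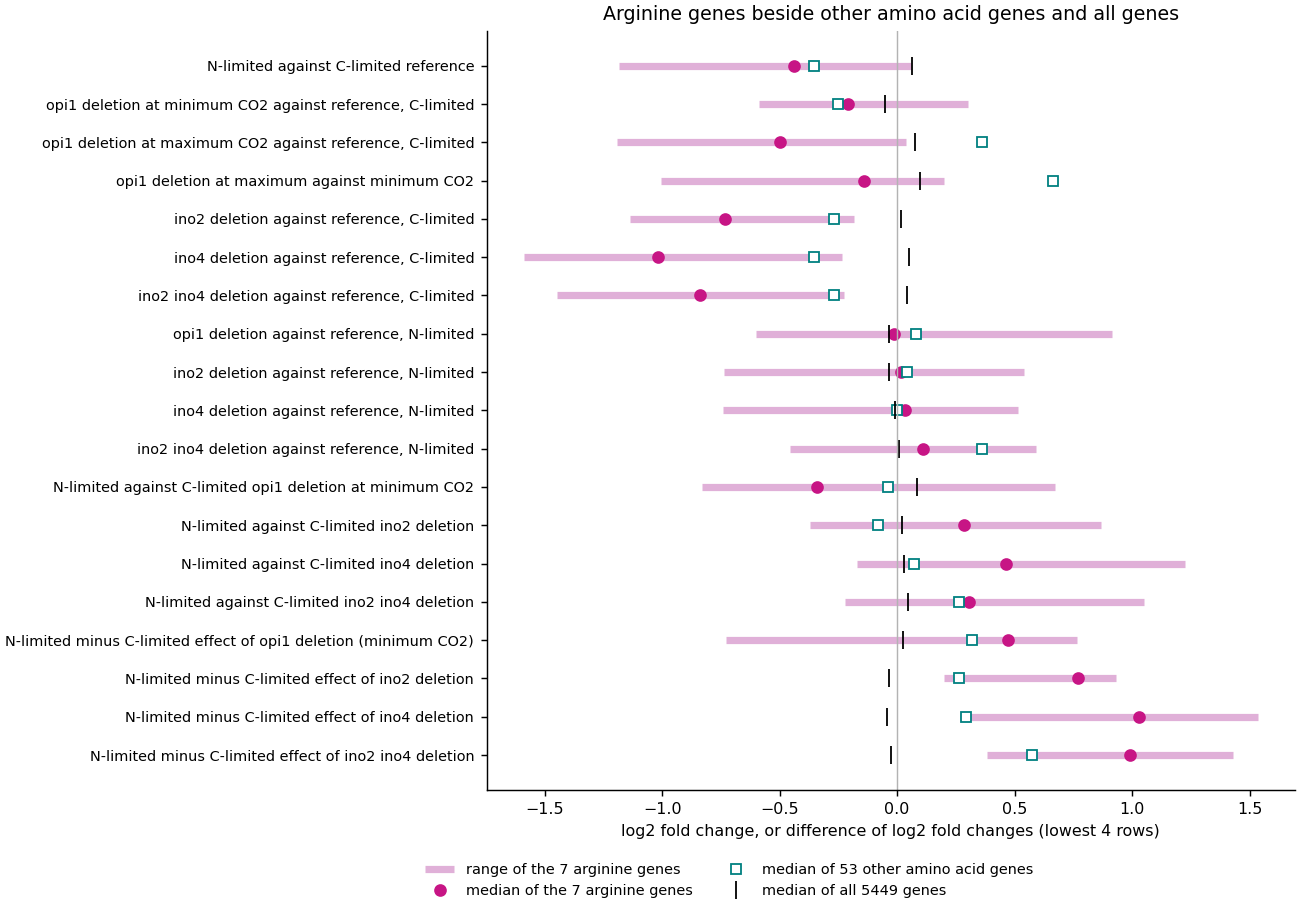
Log2 fold change in each of 15 comparisons, and the difference of 2 log2 fold changes in the lowest 4 rows; filled circles are medians of the 7 arginine genes, bars their lowest to highest value, open squares medians of 53 other amino acid synthesis genes and ticks medians of all 5449 genes. The arginine median is -1.02 in C-limited *ino4*Δ, below the -0.35 of the other amino acid genes, and at maximum against minimum CO2 it is -0.14 while that of the others is 0.66. Between these phases the 7 arginine genes ran from -1.01 to 0.20, and the sign of their median is not settled.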

How the data were processed

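Total RNA of 33 chemostat samples was read on Affymetrix Yeast Genome 2.0 arrays. The authors normalized all arrays together with PLIER (version not given in the sources used here) and deposited log2 signal values for 10928 probe sets, 5498 of which pair with 1 yeast gene in the platform annotation. Current names and locus tags came from RefSeq. The labels and the methods name different RNA extraction kits. For 47 genes with several probe sets the one with the highest mean was used, which left 5449 genes. The background level is the 95th percentile of the 1746 other listed probe sets.

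Groups followed the labels. With limma 3.58.1 (R 4.3.3), lmFit took 11 group coefficients from all arrays at once and eBayes moderated the variances, checked on simulated data, with Benjamini-Hochberg adjustment over all genes and the 0.01 threshold of the methods. The simulated arrays varied independently, with the same spread in all groups. Arrays that deviate together and groups of unequal spread were thus not covered by that check. Tables and plots were made with Python 3.11.15, pandas 2.3.3 and matplotlib 3.10.9. With 3 arrays against 3, an exact permutation test of a single value cannot go below p = 0.1, and no depth is defined for arrays, whose number limits the precision.

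The members, the 10 context lists, the rule for named genes and the arrays left out as doubtful were chosen with earlier results of these data known. The rule named all members, up to 3 called genes per list and comparison with the largest change, the main neighbours of the pathway, and the 10 genes most like the members' mean profile; *GAP1* levels and *INO2*, *INO4* levels are given as checks. Alternatives were other scalings, an added constant of 16, dim genes left out, fits of the compared groups alone, the methods' t-test, trend and robust settings, a mean over probe sets, a replicate block, and fits without single or doubtful arrays. No sequences are shown, since none were given with these data.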

Additional observations from a re-analysis of the deposited data

Results flagged for a closer look

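For 3 values the effect of a deletion differed between the limitations by a test of the difference itself (limma, N-limited minus C-limited effect). In *ino2*Δ*ino4*Δ the difference was 0.74 for *ARG2*, made up of 0.52 under N-limitation and -0.22 under C-limitation, and 1.15 for *ARG3*, made up of 0.40 and -0.74. These 2 values take the label of the N-limited *ino2*Δ*ino4*Δ arrays as given, on which *GAP1* read 7.64 to 8.14, at the C-limited level. In *ino4*Δ the difference was 1.32 for *ARG8*, made up of 0.05 and -1.27. The limma call of *ARG8* was lost in most fits that left out 1 array (adjusted p up to 0.0359) and with a replicate block.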

How the results depend on the processing

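Counts here are of the 7 genes called. Fitted on the compared groups alone, the reference comparison fell from 3 calls to 1, *opi1*Δ at maximum CO2 rose from 2 to 5, the phase comparison went from 2 to 1, C-limited *ino2*Δ and *ino2*Δ*ino4*Δ from 2 to 0, N-limited *ino2*Δ*ino4*Δ from 1 to 0, N- against C-limited *opi1*Δ from 2 to 1 and *ino2*Δ*ino4*Δ from 4 to 1, and the differences of effects from 1 to 2 in *ino4*Δ and from 2 to 1 in *ino2*Δ*ino4*Δ. The methods' t-test with adjusted p gave 0, 5, 1, 0, 0, 0 and 1 calls for the first 7 of these, 0 for N- against C-limited *ino2*Δ and *ino2*Δ*ino4*Δ and 1 for the difference in *ino2*Δ*ino4*Δ. Quantile normalization gave 1 call in C-limited *ino2*Δ, C-limited *ino2*Δ*ino4*Δ, N-limited *opi1*Δ and the *opi1*Δ difference and 4 in the *ino2*Δ*ino4*Δ difference. In N-limited *opi1*Δ a constant of 16 gave 2 calls and leaving out dim genes 1.

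Same-numbered arrays deviated together in 3 of 55 pairs of groups (correlations over all pairs from -0.76 to 0.70). These were C-limited *ino2*Δ with *ino2*Δ*ino4*Δ (0.55 to 0.70), *opi1*Δ at minimum CO2 with N-limited *ino2*Δ*ino4*Δ (0.28 to 0.59) and the C-limited reference with N-limited *ino2*Δ (0.17 to 0.24). No comparison of 2 groups made here is among them, though the last pair enters the *ino2*Δ difference, and the numbers were not taken to pair the arrays. With a replicate block N-limited *opi1*Δ and the *opi1*Δ difference had 1 call and the *ino4*Δ difference 0, while the *ino2*Δ difference stayed at 0.

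Without the arrays that deviate together, the phase comparison and the *ino4*Δ difference had 4 calls and N-limited *ino2*Δ*ino4*Δ 2. Signs turned by more than 1 standard error at minimum CO2 against the reference (*ARG1* 0.31, *ARG7* 0.13, *CPA1* 0.25), between the phases (*ARG8* -0.15), in N-limited *opi1*Δ (*CPA1* -0.20), in N- against C-limited *opi1*Δ (*ARG1* -0.50, *CPA1* -0.63) and *ino2*Δ*ino4*Δ (*ARG8* 0.27, *CPA1* 0.52), and in the *opi1*Δ difference (*ARG1* -0.64, *ARG4* -0.093, *ARG7* -0.40, *ARG8* -0.026, *CPA1* -0.46). Without the arrays of mismatched *INO* levels, C-limited *ino2*Δ had 0 calls, C-limited *ino2*Δ*ino4*Δ 4, and the *ino4*Δ and *ino2*Δ*ino4*Δ differences 3 and 6, and signs turned for *ARG2* in C-limited *ino2*Δ (0.020) and its difference (-0.0043) and for *ARG8* in N- against C-limited *ino2*Δ*ino4*Δ (0.22). Centring the arrays turned *ARG2* between the phases to -0.077.

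Leaving out 1 array at a time gave 1 to 3 calls in the reference comparison, 2 to 2 for *opi1*Δ at maximum CO2, 1 to 2 between the phases, 0 to 4 in C-limited *ino2*Δ, 4 to 5 in *ino4*Δ and 1 to 4 in *ino2*Δ*ino4*Δ, 0 to 1 in N-limited *opi1*Δ, 1 to 2 in N-limited *ino2*Δ*ino4*Δ, and, N- against C-limited, 1 to 3 in *opi1*Δ, 0 to 1 in *ino2*Δ, 1 to 3 in *ino4*Δ and 2 to 4 in *ino2*Δ*ino4*Δ. The differences gave 0 to 1 in *opi1*Δ, 0 to 3 in *ino4*Δ and 2 to 5 in *ino2*Δ*ino4*Δ. Signs turned by more than 1 standard error for *ARG1* at minimum CO2 (-0.46 to 0.10), *ARG7* (-0.17 to 0.31) and *CPA1* (-0.35 to 0.26) between the phases, *CPA1* in N-limited *opi1*Δ (-0.20 to 0.45) and *ino2*Δ*ino4*Δ (-0.32 to 0.39), and, N- against C-limited, *ARG1* in *opi1*Δ (-0.30 to 0.27), *ARG8* in *ino2*Δ (-0.25 to 0.23), and *ARG7* (-0.13 to 0.52) and *ARG8* (-0.27 to 0.22) in *ino2*Δ*ino4*Δ. Another 34 values turned by less with 1 array left out, 8 without the arrays that deviate together, 6 after quantile normalization, 2 with centring and 1 without the arrays of mismatched *INO* levels. No value that changed sign was called before or after. Trend and robust settings and the mean over probe sets moved no call. Fits without doubtful arrays leave 1 array in some groups, which is assumed to vary like the others. The cause of the changes was not tested.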
